A study of Mus musculus with 6 samples.

Results

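The 8 genes described here mark tissue-resident and perivascular macrophages, and were measured in mouse macrophages grown from bone marrow, after 24 h with or without medium conditioned by tumour cells. They (Cbr2, Folr2, Lyve1, Timd4, Vsig4, Cd5l, Selenop and Adgre1) were chosen by name, with earlier results of these data known. Each was found once among the 55421 genes of the deposited count table. The series held 6 wells of wild-type (WT) bone marrow-derived macrophages. The 3 untreated wells were kept in RPMI-1640 with 10% serum, penicillin and streptomycin and 20 ng/mL macrophage colony-stimulating factor (M-CSF), the growth factor that drives marrow cells to become macrophages. The 3 conditioned-medium wells received this medium mixed with an equal volume of medium from LL-2 cells, a mouse Lewis lung carcinoma line, so that 50% of the volume was conditioned. For these wells, too, 20 ng/mL M-CSF and 10% serum are listed. The sources used here do not give the strain, age or number of the marrow donors. No macrophages taken from a tissue, and no wells in medium from other cells, were analysed here. Tumour-cell products, conditioning as such and dilution of fresh medium cannot be told apart.

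Resident macrophages settle in organs before or after birth and take on a gene programme set by the organ, while macrophages grown from marrow in M-CSF start from monocyte precursors without those organ signals. Several of the 8 genes are cell-surface receptors that bind dying cells, opsonised particles, vitamins or matrix, and others encode secreted proteins or an enzyme. Folr2 and Lyve1 are used to define perivascular and interstitial macrophages, Timd4 and Vsig4 self-maintaining resident cells of liver, gut and body cavities, Cd5l tissue macrophages of liver and spleen, and Adgre1 mouse macrophages in general. Transcription factors of the ETS family (PU.1) and the MAF family take part in macrophage gene expression.

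The promoters of 3 of the genes are shown because these genes moved in opposite directions: Cbr2 and Vsig4 were higher in conditioned medium and Cd5l was lower. Sequences are from RefSeq (GRCm38.p6), 5′ to 3′ on the strand of the gene, from 250 bases before the transcription start to 50 bases after it. Capitals mark the PU.1 core letters GAGGAA and the MAF half-site letters TGCTGA, searched on both strands, so that TTCCTC and TCAGCA are their reverse complements.
Cbr2 (chr11:120731972-120732271, minus strand): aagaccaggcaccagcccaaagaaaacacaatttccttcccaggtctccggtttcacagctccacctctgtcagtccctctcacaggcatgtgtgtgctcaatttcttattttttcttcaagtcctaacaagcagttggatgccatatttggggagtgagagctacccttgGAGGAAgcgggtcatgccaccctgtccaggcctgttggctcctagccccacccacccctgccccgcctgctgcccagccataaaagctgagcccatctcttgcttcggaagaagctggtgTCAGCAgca
Vsig4 (chrX:96293389-96293688, minus strand): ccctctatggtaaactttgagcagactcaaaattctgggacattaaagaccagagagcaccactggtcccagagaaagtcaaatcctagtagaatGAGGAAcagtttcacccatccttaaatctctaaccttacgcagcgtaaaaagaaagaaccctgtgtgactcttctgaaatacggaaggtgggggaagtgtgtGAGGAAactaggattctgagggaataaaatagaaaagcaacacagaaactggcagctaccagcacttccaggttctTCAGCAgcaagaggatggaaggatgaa
Cd5l (chr3:87357631-87357930, plus strand): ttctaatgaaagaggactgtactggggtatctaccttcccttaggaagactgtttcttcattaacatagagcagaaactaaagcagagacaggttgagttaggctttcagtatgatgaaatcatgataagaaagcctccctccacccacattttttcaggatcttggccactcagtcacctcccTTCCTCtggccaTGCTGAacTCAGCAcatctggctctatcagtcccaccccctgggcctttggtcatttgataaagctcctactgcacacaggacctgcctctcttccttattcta

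RefSeq windows were found for 6 of the 8 genes, 9 windows in all, with none for Adgre1 or Lyve1. Cbr2 held 1 PU.1 core, with its first base at -79 from the start, and Vsig4 held 2, at -155 and -53. Cd5l held 1, at -66. The core stands in 28.3% of all 32851 promoter windows of this length. The MAF half-site stood once in Cbr2 (42) and Vsig4 (24) and at -54 and -46 in Cd5l, and 19.5% of all windows hold it. In Cd5l the pair forms TGCTGANNTCAGCA, in which each half-site is the reverse complement of the other. This paired form was searched after the half-sites had been seen, and it occurred in 2 of the 32851 windows (0.00609%). These are matches of letters, not measured binding. Timd4 held 2 MAF half-sites and no PU.1 core, and each of the 2 Folr2 windows held 1 MAF half-site and no PU.1 core. None of the 3 overlapping Selenop windows held a MAF half-site. The same PU.1 core stood in 2 of them, at -179 from 1 start and -223 from the other. C/EBP, AP-1, E-box, hypoxia and glucocorticoid receptor letters were searched as well. Of these only AP-1 in 1 Folr2 window (-74) and the glucocorticoid letters in Timd4 (-207) matched, found in 7.81% and 6.85% of all windows.

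The libraries held 24179548 to 25916709 counts in the untreated wells and 28447825 to 30040682 in conditioned medium, so every conditioned-medium library was deeper. All 10 macrophage markers checked, such as Csf1r, Cd68 and Lyz2, were detected, with a summed level of 53722 to 62526 CPM (the usual depth-scaled count, here with TMM-scaled library sizes) untreated and 62163 to 66006 CPM in conditioned medium. Of 13853 genes that passed a filter on low counts and were tested, 27.9% changed with conditioned medium, 12.6% upward and 15.2% downward (edgeR's quasi-likelihood test, Benjamini-Hochberg adjusted p under 0.05). The median log2 fold change of all tested genes was 0.013. The 10 macrophage markers were mixed as well: 6 rose, 3 fell and 1 was not called. Csf1r rose (log2 fold change 0.49) and Cd68 fell (-0.66). Lyz2, at 45410 and 49293 CPM the bulk of the sum, was the one not called. Without scaling beyond the total count, 60.8% of the calls were upward, against 45.3% with TMM scaling. Wells numbered 3 differed from the others of their group by more than wells 1 and 2 did from each other (chi-square per degree of freedom 10.3 to 15.1, against 3.85 and 3.99).

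Of the 8 resident macrophage genes, 7 passed the filter, each with at least 29 counts in every library. Of the 7, 6 changed, where the background was 27.9%. Because the genes were chosen with earlier results of these data known, this share is a description and not a test. Cbr2, Vsig4 and Selenop rose, against a background of 12.6%. Cd5l, Folr2 and Adgre1 fell, against a background of 15.2%. Timd4 was not called, and Lyve1 was too scarce to test. The wells of the 2 groups did not overlap for the 6 called genes, where the background was 42.8% of all tested genes, 21.2% with the conditioned-medium wells higher and 21.6% with them lower. With the replicate number as a block, and without both wells numbered 3, these 6 were called as well. The median log2 fold change of the 7 tested genes was 0.08. All values are TMM-scaled CPM, and changes are conditioned medium minus untreated. In bulk RNA, more cells that express a gene and more RNA per cell cannot be told apart.

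**Figure D1:**
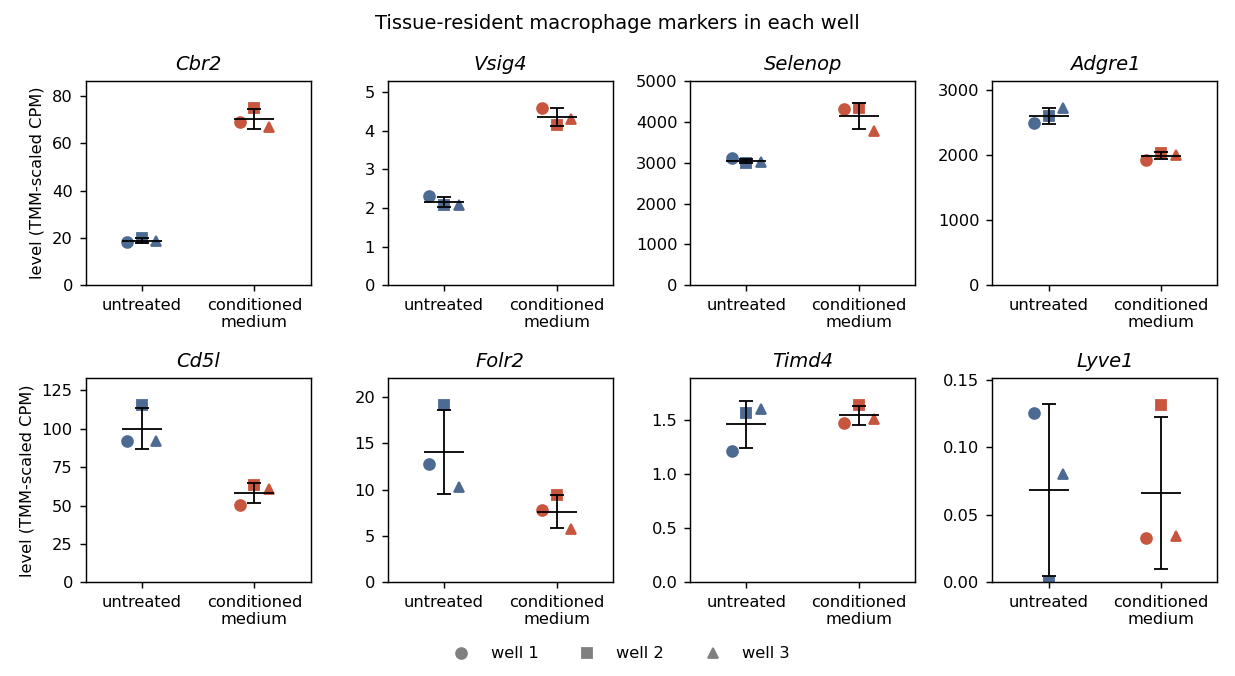
Level of each of the 8 genes in each well, in TMM-scaled CPM on linear axes that start at 0. Symbols are the wells numbered 1, 2 and 3, and bars are the mean and SD of 3 wells. All conditioned-medium wells lie above all untreated wells for Cbr2, Vsig4 and Selenop and below them for Adgre1, Cd5l and Folr2, while the groups overlap for Timd4 and Lyve1.

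Cbr2 encodes an NADPH-dependent carbonyl reductase, an enzyme that reduces carbonyl compounds, and had the largest change of the 8 (ENSMUSG00000025150, chromosome 11, 120729489 to 120732114, minus strand, GRCm38). Untreated wells 1 to 3 held 18.1, 19.9 and 18.6 CPM, and conditioned-medium wells 1 to 3 held 68.9, 75.0 and 66.7 CPM. The 2 sets of wells were far apart and each was tight, with coefficients of variation of 4.98% and 6.11%. Conditioned medium raised the mean 3.72-fold (18.9 ± 0.939 and 70.2 ± 4.29 CPM, SD, n = 3), a log2 fold change of 1.90 (SE 0.06, edgeR adjusted p = 2.43e-07). Between wells of the same number the log2 ratio was 1.93, 1.91 and 1.84. Among the 13853 tested genes, 39 had a larger rise. The related carbonyl reductase genes Cbr1, Cbr3 and Cbr4 had log2 fold changes of 0.12, 0.17 and 0.05 and were not called.

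Vsig4 encodes a complement receptor of the immunoglobulin superfamily that binds fragments of C3 and marks Kupffer cells and other resident macrophages (ENSMUSG00000044206, chromosome X, 96247203 to 96293438, minus strand). Its counts were low, 55, 50 and 52 in untreated wells and 140, 126 and 125 in conditioned medium. On the CPM scale these were 2.30, 2.06 and 2.08 untreated and 4.59, 4.14 and 4.30 in conditioned medium, so that every treated well lay well above every control. The gene rose 2.02-fold (log2 fold change 1.01, SE 0.15, 95% interval 0.68 to 1.35, edgeR adjusted p = 0.000942). The log2 ratio within each pair of same-numbered wells was 1.00, 1.00 and 1.05. A larger rise was seen for 306 tested genes.

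Selenop encodes selenoprotein P, the secreted protein that carries selenium between tissues (ENSMUSG00000064373, chromosome 15, 3268547 to 3280508, plus strand). It was the most abundant of the 8 per length, and took 0.298% of all counts in untreated and 0.423% in conditioned-medium libraries on average. Untreated wells held 3111, 3000.4 and 3026 CPM and conditioned-medium wells 4320.0, 4356 and 3785 CPM. The coefficient of variation was 1.89% in the untreated wells, and conditioned-medium well 3 was the lowest of its group. The rise was 1.36-fold (log2 fold change 0.45, SE 0.06, edgeR adjusted p = 0.00057), and 1318 tested genes rose more. Selenop shares 439 of its 2842 exon bases with Ccdc152 on the opposite strand, which had 867 counts in all against 596841 for Selenop.

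Cd5l encodes a secreted scavenger receptor cysteine-rich protein, also called AIM, that supports macrophage survival (ENSMUSG00000015854, chromosome 3, 87357881 to 87371073, plus strand). Untreated wells held 92.1, 115 and 92.2 CPM and conditioned-medium wells 50.6, 63.2 and 60.5 CPM. Well 2 was the highest in both groups. Means of 99.9 ± 13.5 and 58.1 ± 6.67 CPM gave a 1.72-fold fall (log2 fold change -0.78, SE 0.10, edgeR adjusted p = 0.000547). The log2 ratio was -0.87, -0.87 and -0.61 in wells 1, 2 and 3. A larger fall was seen for 774 tested genes.

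Folr2 encodes folate receptor beta, a membrane-anchored folate-binding protein of macrophages (ENSMUSG00000032725, chromosome 7, 101839988 to 101857194, minus strand). Untreated wells held 12.8, 19.1 and 10.3 CPM and conditioned-medium wells 7.74, 9.36 and 5.78 CPM. The groups did not overlap, but the highest treated well and the lowest untreated well, numbers 2 and 3, were close. Folr2 was 1.84-fold lower (log2 fold change -0.88, SE 0.23, 95% interval -1.40 to -0.35, edgeR adjusted p = 0.0206). In both groups well 2 was the highest and well 3 the lowest, and the ratio within same-numbered wells was -0.72, -1.03 and -0.83 on the log2 scale. The call was lost without untreated well 2 (log2 fold change -0.59, adjusted p = 0.0718), without conditioned-medium well 1 (-0.89, adjusted p = 0.0659) and without conditioned-medium well 3 (-0.72, adjusted p = 0.0503). Over the 14 alternatives the adjusted p ran from 2.81e-06, with the replicate block, to 0.0718. Folr2 shares 975 of its 1546 exon bases with Gm10602 on the opposite strand (120 counts untreated and 153 in conditioned medium, against 1024 and 689 for Folr2), so its counts are uncertain.

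Adgre1 encodes F4/80, an adhesion G protein-coupled receptor and the classical surface marker of mouse macrophages (ENSMUSG00000004730, chromosome 17, 57358691 to 57483527, plus strand). Untreated wells held 2486, 2595 and 2728 CPM and conditioned-medium wells 1931, 2031 and 2004 CPM. The change was small beside its level but larger than the spread in either group, with coefficients of variation of 4.66% and 2.62%. Adgre1 was 1.31-fold lower (log2 fold change -0.39, SE 0.05, edgeR adjusted p = 0.000427), and 1937 tested genes fell more.

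Timd4 encodes a receptor for phosphatidylserine, the lipid that dying cells expose (ENSMUSG00000055546, chromosome 11, 46810800 to 46844332, plus strand). Its counts were 29, 38 and 40 untreated and 45, 50 and 44 in conditioned medium. Scaled to depth these were 1.21, 1.57 and 1.60 CPM and 1.48, 1.64 and 1.51 CPM, and the groups overlapped. The log2 fold change was 0.08 (SE 0.22, edgeR adjusted p = 0.827) with a 95% interval of -0.41 to 0.57. Changes inside this interval, in either direction, were compatible with the data, and the smallest detectable change was not computed. Without untreated well 1, the lowest well, the estimate was -0.041.

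Lyve1 encodes a hyaluronan receptor of lymphatic vessels and perivascular macrophages (ENSMUSG00000030787, chromosome 7, 110850607 to 110863239, minus strand). It was at the limit of detection. Counts were 3, 0 and 2 in untreated wells and 1, 4 and 1 in conditioned medium, 5 against 6 in all. A library with 0 counts has an upper limit of 3 counts, which is 0.0984 to 0.125 CPM here and covers counting error only, so no ratio is given.

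**Figure D2:**
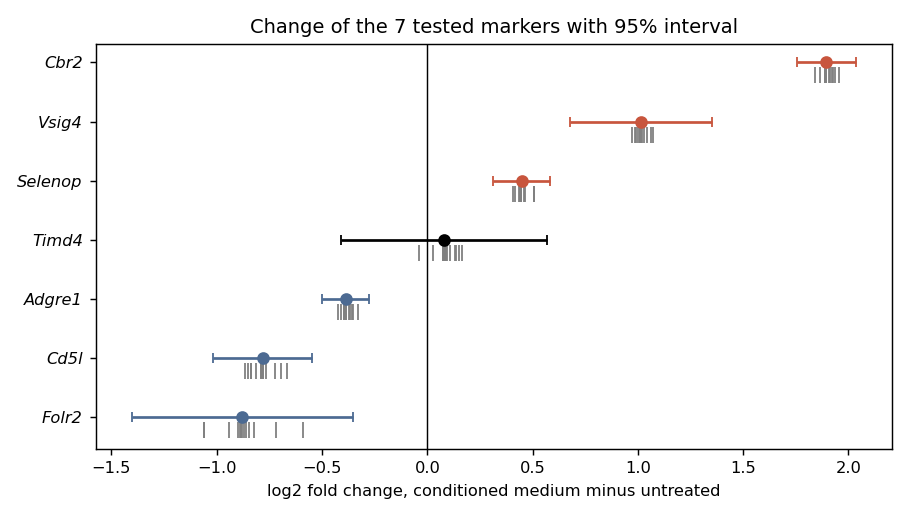
Log2 fold change (conditioned medium minus untreated, 3 wells per group) of the 7 tested genes, with the 95% interval of edgeR's quasi-likelihood fit; red marks genes called higher, blue genes called lower and black the gene not called. Grey ticks under each gene are the estimates under the 14 alternatives, which change sign only for Timd4.

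The levels of the 8 genes spanned a wide range when compared per kilobase of counted exon. In untreated wells the order from the highest was Selenop at 1072 CPM per kilobase, Adgre1 at 804, Cd5l at 49.1, Cbr2 at 14.2, Folr2 at 9.08, Vsig4 at 1.45, Timd4 at 0.673 and Lyve1 at 0.0235. No 2 neighbours in this order overlapped between wells. In conditioned medium Cbr2, at 52.9 CPM per kilobase, stood above Cd5l, at 28.5, so that these genes exchanged places, and the rest of the order was kept, again with no overlap between neighbours. Among all tested genes ranked by this level, Selenop moved from place 28 to 16, Adgre1 from 37 to 45, Cbr2 from 3032 to 807 and Cd5l from 922 to 1542. Vsig4, Timd4 and Lyve1 were the 3 lowest in both groups.

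**Figure D3:**
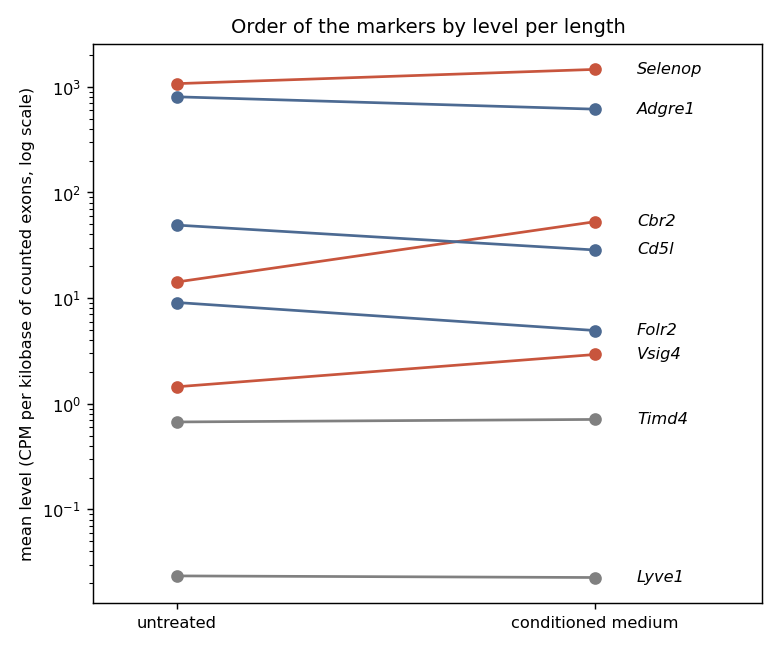
Mean level of each gene in the untreated and the conditioned-medium wells, in TMM-scaled CPM per kilobase of counted exons on a log axis; red lines rose, blue lines fell and grey lines were not called or not tested. Cbr2 (14.2 to 52.9) and Cd5l (49.1 to 28.5) cross.

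Other genes whose 6 well values most resembled those of each called gene were found by the smallest root mean square difference between centred log2 CPM values among 9251 genes of at least 5 CPM (9252 for Vsig4). Adgre1 was nearest to Rin2, Cdk19 and B2m, which encodes the light chain of MHC class I, at differences of 0.019, 0.020 and 0.022. Selenop was nearest to Smap2 (0.029), Pilrb2 (0.031) and Vsir (0.032), and Vsig4 to Sh2b2 (0.051), Arrdc4 (0.059) and Ssh2 (0.062). Cbr2 was nearest to Kmo (0.087), Acpp (0.098) and Gprc5c (0.128), and Cd5l to Cdk14 (0.073), Slc28a2 (0.100) and Tmsb10 (0.104). The genes nearest to Folr2 were Stmn1 (0.129), Plk1 (0.132), a mitotic kinase gene, and Rgs1 (0.137). These distances are a description of 6 wells in 2 groups.

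Among 22 further markers of perivascular and interstitial macrophages, 19 were tested, 14 rose and 1 fell, with a median log2 fold change of 0.80 (all tested genes: 0.013, with 12.6% called higher and 15.2% lower). This list was assembled with earlier results of these data known. F13a1, the coagulation factor XIII A chain, had a log2 fold change of 3.92, the haemoglobin scavenger receptor Cd163 one of 3.50, and the chemokine gene Pf4 one of 1.13 (48.1 ± 10.98 to 105 ± 41.6 CPM). Pf4 was not called without conditioned-medium well 1 (adjusted p = 0.0544) or well 2 (0.0540). Stab1, a scavenger receptor, rose 2.09-fold to 3487 ± 224 CPM. The MAF transcription factor gene Maf rose from 565 to 757 CPM (log2 fold change 0.42), while Wfdc17 fell with a log2 fold change of -0.61 and Igf1 stood at 605 and 603 CPM. Of the 8 genes, Cbr2, Vsig4 and Selenop rose, as most of this list did, and Folr2, Cd5l and Adgre1 fell.

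Markers of Kupffer cells and splenic red pulp macrophages were mixed. Of 12, 10 were tested, 5 rose and 2 fell, and the median was 0.11 (all tested genes: 12.6% higher and 15.2% lower). Vcam1, an adhesion molecule gene, rose 2.50-fold (30.3 ± 0.597 to 75.6 ± 2.49 CPM) and Spic, a transcription factor gene of iron-recycling macrophages, had a log2 fold change of 0.61. The liver X receptor gene Nr1h3 was 2.63-fold lower (95.6 ± 20.7 to 36.3 ± 8.19 CPM), and Clec4f, the lectin that defines Kupffer cells, had 0 counts in every library. The 5 rises were 3 without untreated well 1, 2 without untreated well 2, and 3 without conditioned-medium well 1 or without well 2. Spic was among the calls lost (adjusted p = 0.0542 without untreated well 2, 0.0528 without conditioned-medium well 1 and 0.0511 without well 2).

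Alveolar macrophage markers went mostly down: of 14, 9 were tested, 6 fell and 1 rose, with a median of -0.79. For this and the next lists the background was 15.2% of all tested genes lower and 12.6% higher. The integrin gene Itgax was 3.98-fold lower, Atp6v0d2, a proton pump subunit gene, 2.69-fold lower, and Pparg, the nuclear receptor gene that drives alveolar identity, 2.39-fold lower. Of 13 serous cavity markers, 8 were tested, of which Lbp rose 2.58-fold and Bhlhe40 was 2.54-fold lower, while Gata6, their defining transcription factor gene, had 2 counts in all. Of 12 microglia markers, 11 were tested, 5 rose and 4 fell, with Gpr34 2.98-fold higher, Olfml3 2.79-fold lower and Cx3cr1 2.26-fold lower, and Sall1 had 0 counts. Of 14 monocyte markers, 13 were tested, 6 rose and 2 fell (median 0.35). The monocyte rises were 3 without untreated well 1 and 3 without untreated well 2. Among them Vcan and Ifitm6 rose by 3.27 and 1.23 on the log2 scale, and Ms4a4c had a change of -1.06.

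**Figure D4:**
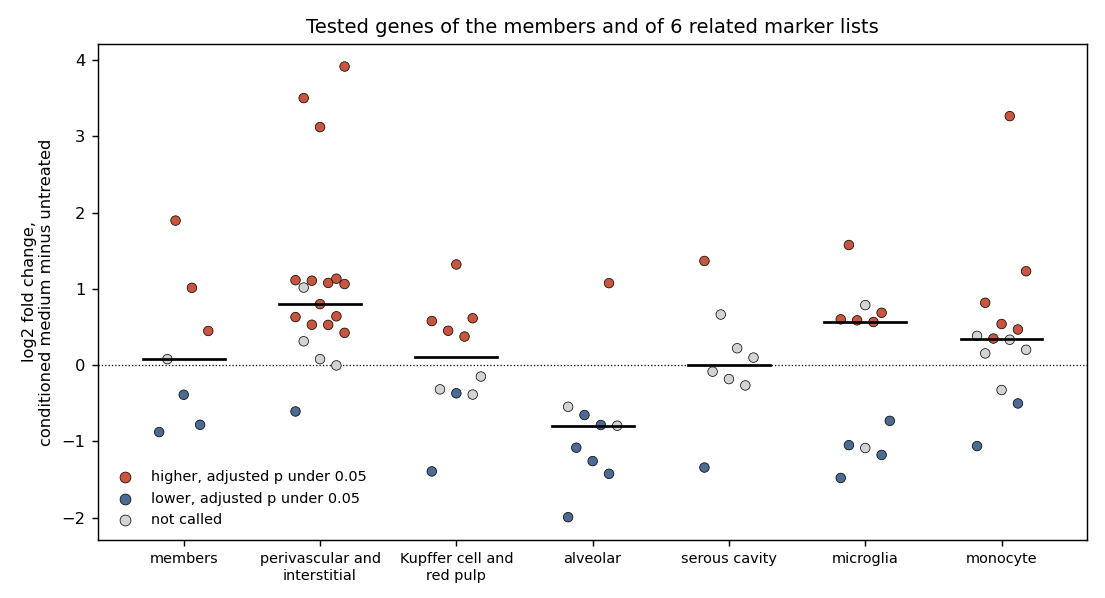
Log2 fold change (conditioned medium minus untreated, 3 wells per group) of each tested gene of the 8 members and of 6 related marker lists; red was called higher, blue lower and grey not called, and bars are list medians. The members lie on both sides of 0, the perivascular and interstitial list has a median of 0.80, and the alveolar list one of -0.79.

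Genes that work with the 8 markers were grouped by function. The background for these lists was 27.9% of all tested genes changed, 12.6% higher and 15.2% lower. Timd4 belongs to the uptake of dying cells, where 18 of 23 genes were tested, 3 rose and 6 fell (median -0.08). Stab1 rose, and the bridging protein gene Mfge8 was 3.41-fold lower and the receptor tyrosine kinase gene Axl 2.36-fold lower. Under the replicate block 5 rose and 8 fell (all tested genes: 17% and 19.3%), and 5 rose when conditioned-medium well 3 was left out. Vsig4 acts on fragments of complement C3, where 14 of 17 genes were tested, 4 rose and 4 fell (median -0.15). Cfb, which drives C3 cleavage, was 2.78-fold lower, and C3 stood at 644 ± 200.2 and 508 ± 90.2 CPM (adjusted p = 0.231), and was called lower with the replicate block (adjusted p = 0.000354).

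Folr2 binds folate, and of 22 folate receptor, transport and one-carbon genes 19 were tested, 5 fell and 1 rose (median -0.20). Among all tested genes 15.2% fell and 12.6% rose, or 19.3% and 17% with the replicate block. Mthfd2, a mitochondrial folate enzyme gene, was 1.60-fold lower and Mtr, the methionine synthase gene, rose 1.48-fold. Folr1, the alpha folate receptor gene, had 82 counts in all libraries and was not called. The falls were 9 with the replicate block, 3 without untreated well 1, 2 without untreated well 2 and 2 without conditioned-medium well 2. Selenop is one of the selenoproteins, and of 30 further selenoprotein and selenocysteine genes 26 were tested, 1 rose and 5 fell (median -0.08). The rise was Gpx3, the secreted glutathione peroxidase gene (133 ± 5.92 to 192 ± 12.7 CPM), and the falls included the deiodinase gene Dio2, 4.89-fold lower, and Lrp8, a receptor gene for selenoprotein P, 1.69-fold lower. With the replicate block 3 rose and 7 fell, and 2 rose without untreated well 3. The other 20 tested genes were not called.

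Lyve1 binds hyaluronan, and of 15 hyaluronan receptor and enzyme genes 12 were tested, 3 rose and 1 fell (median 0.25). The background for the lists of this paragraph was 12.6% of all tested genes higher and 15.2% lower. Cd44, the main leukocyte hyaluronan receptor gene, stood at 241 and 239 CPM and was not called. Vcan, the gene of a hyaluronan-binding protein, and Ptx3 had log2 fold changes of 3.27 and 2.31. Ptx3 was scarce, at 0.441 ± 0.194 CPM untreated and 2.18 ± 1.44 CPM in conditioned medium. The single fall was that of Hmmr (log2 fold change -0.79). Its call was lost without untreated well 1 (adjusted p = 0.0519), untreated well 2 (0.0665) or conditioned-medium well 1 (0.0627). Of 40 family relatives of the 8 genes, 25 were tested, 6 rose and 3 fell (median 0.05). Adgre4, which like Adgre1 encodes an adhesion receptor with EGF-like domains, rose 2.05-fold (57.9 ± 12.8 to 119 ± 7.22 CPM). Adgre5, another Adgre gene, fell 1.37-fold (265 ± 12.7 to 193 ± 18.0 CPM), in the direction of Adgre1. It shares 895 of its 3757 exon bases with Ddx39 on the opposite strand. The rises among the family relatives were 3 without untreated well 2. Of 32 macrophage transcription factor genes, 31 were tested, 6 rose and 8 fell (median 0.03). With the replicate block 10 rose and 11 fell (all tested genes: 17% and 19.3%). Maf, Rxra (154 to 218 CPM) and Runx1 (86.1 to 114 CPM) rose, Nr1h3, Bhlhe40 and Pparg fell, and the PU.1 gene Spi1 (463 and 422 CPM) was not called (adjusted p = 0.152), but was called lower with the replicate block (adjusted p = 0.0168).

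Markers of other cells that express these genes were checked in the same wells. Of all tested genes 12.6% were called higher and 15.2% lower, or 17% and 19.3% with the replicate block. For lymphatic endothelium, which carries Lyve1, 5 of 6 markers had a count, Ccl21a had 0, Prox1 had 13 counts in all, and the summed level was 9.74 to 13.7 CPM untreated and 7.57 to 10.7 CPM in conditioned medium; none of the 3 tested was called, and 1 was lower with the replicate block. For hepatocytes, the main source of selenoprotein P in the body, Ttr, Serpina1a and Fgb had 0 counts, Alb had 2, and the summed level of the 6 markers stayed at or under 0.103 CPM. Airway epithelium also expresses Cbr2. Of 7 markers of airway epithelium and carcinoma, such as Epcam and Krt8, 6 had a count and Scgb3a2 had 0. Their sum was 2.08 to 2.43 CPM untreated and 1.07 to 2.36 CPM in conditioned medium. Blood endothelial markers were mixed: 3 of 6 tested rose and 1 fell, and the sums overlapped (35.2 to 48.5 and 30.7 to 55.7 CPM). The rises were Cdh5 (1.00 ± 0.447 to 3.50 ± 1.19 CPM), Pecam1 (10.8 to 23.6 CPM) and Emcn (0.399 to 1.43 CPM, groups overlapping). Kdr, the highest of the list in untreated wells, fell 2.15-fold (26.5 to 12.3 CPM). Of 6 tested dendritic cell markers 3 fell (sums 19.2 to 27.7 and 9.36 to 15.1 CPM), and 4 of 5 tested markers of mast cells and basophils fell while 1 rose (12.9 to 14.7 and 9.95 to 11.7 CPM). Fibroblast marker sums were 15.7 to 68.5 and 31.5 to 97.8 CPM, and 4 of 6 tested genes rose with the replicate block but were not called without it. Of 9 tested neutrophil markers Retnlg rose (10.9 to 17.3 CPM) and Camp (15.5 to 8.34 CPM) and Ltf (76.9 to 47.7 CPM) fell, with sums of 410 to 609 and 499 to 583 CPM, and with the replicate block 5 rose and 3 fell. None of 5 tested megakaryocyte and platelet markers was called, 3 were lower with the replicate block, and the sums were 96.9 to 166 and 69.9 to 137 CPM. Of 6 tested B and plasma cell markers Ms4a1 fell (log2 fold change -0.89), with sums of 19.1 to 23.5 and 16.6 to 20.3 CPM. For T and NK cells neither of the 2 tested markers was called, Cd4 was higher and Klrb1c lower with the replicate block, and the sums, mostly Cd4, were 105 to 163 and 110 to 201 CPM. Erythroid marker sums were at most 0.624 CPM. The part of these cells in the changes of the 8 genes was not tested.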

How the data were processed

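Messenger RNA of 6 wells (3 per group, placed by their titles) was analysed from 1 table of whole-number counts per gene deposited by the authors. HISAT2, the build GRCm38 and featureCounts are named in the submitters' processing notes. The sources used here do not give the strand setting, annotation release or treatment of reads with several matches, and genes with overlapping exons therefore have uncertain counts. Of 55421 identifiers, 55154 were matched to a GENCODE symbol. Gene length, the counted exon bases per the file headers, gave levels per kilobase. RefSeq supplied the promoter sequences.

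Genes were kept by filterByExpr, libraries scaled by TMM, and the quasi-likelihood test of edgeR 4.0.16 (with limma 3.58.1 in R 4.3.3) run over all tested genes, with Benjamini-Hochberg adjustment and a threshold of 0.05. Adjusted p-values are from edgeR unless stated. SE were derived from the F statistic. Scripts were tested on simulated data. The alternatives tried were DESeq2 1.42.0, limma-voom, RLE scaling, scaling to the total count alone, no filter, a mean of at least 1 CPM, the replicate block, and each library left out in turn. Leaving both wells numbered 3 out was added after seeing the data.

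The 8 genes and all lists were chosen with earlier results of these data known. Of each list, up to 3 called genes of at least 1 CPM with the largest change were to be named; some of these are left out, and other list genes were named after their values were seen. For each called gene, the 3 genes with the most similar values were named. The replicate numbers pair the wells by the rule used: deviations from the group means correlated by 0.328, 0.161 and 0.309 for wells of the same number over 13853 genes. No label says what the numbers stand for or whether the wells had separate donors, and the p-values then reflect only well-to-well spread, possibly technical. Wells of 1 group differed by more than sampling noise, and none was treated as a copy.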

Additional observations from a re-analysis of the deposited data

How the results depend on the processing

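The 6 calls among the 8 genes were made under each alternative with all libraries and without both wells numbered 3. Leaving out 1 library gave 5 or 6 calls, 3 higher and 2 or 3 lower, and the call that was lost was that of Folr2, whose values stand in the text. The sign held under the 14 alternatives for every tested gene except Timd4, which was not called and had a log2 fold change of -0.041 without untreated replicate 1 (-0.041 to 0.15 over the libraries left out in turn). The replicate block, which uses the pairing of wells by number, changed no call among the 8 genes (Cbr2 adjusted p 1.57e-12 with it). Scaling to the total count alone gave 2656 higher genes, against 1749, and leaving out 1 library gave 1146 to 1653. List counts that moved by more than 1.5 times were as follows. With the replicate block 10 transcription factor genes, 5 uptake genes and 3 selenoprotein genes were higher and 9 folate genes lower. Of all tested genes, 17% were then higher and 19.3% lower, against 12.6% and 15.2% without the block. Without scaling 5 uptake and 4 selenoprotein genes were higher (all genes: 2656), and without the low-count filter 6 and 2 (all genes: 1942). Without both wells numbered 3, 5 uptake and 3 selenoprotein genes were higher and 2 serous cavity genes lower. All genes called were then 1871 higher and 2209 lower, against 1749 and 2112 in the main fit. Leaving out 1 library gave 2 to 5 Kupffer cell and red pulp, 3 to 7 monocyte, 2 to 5 uptake, 1 to 2 selenoprotein and 3 to 7 family genes higher, and 2 to 5 folate and 0 to 1 hyaluronan genes lower. Over the libraries left out in turn, 1146 to 1653 of all genes were higher and 1579 to 2001 lower. The cause of these moves was not tested. Depth limits Lyve1 and Timd4, which had 11 and 246 counts in all.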
